A study of Mus musculus with 12 samples.

Results

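Metallothioneins, zinc and manganese carriers and the copper pump of the liver make up the 8 genes described here, namely Mt1, Mt2, Slc39a4, Slc39a8, Slc39a14, Slc30a1, Slc30a10 and Atp7b. They were taken by symbol from a table of read counts for 35275 genes, and all 8 were found. Liver RNA was compared between male C57Bl/6J mice that ate a diet with 0.5% norUDCA and mice that ate chow, both for 1 week at 13 weeks of age. NorUDCA (norursodeoxycholic acid) is a side chain-shortened derivative of ursodeoxycholic acid. The mice were wild type, and each diet had 6 libraries, numbered 9, 10, 11, 12, 13 and 20 for norUDCA and 2, 3, 7, 8, 16 and 17 for chow. Whether each library was a different animal is not stated in the labels, so every p measures the spread between libraries.

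Metallothioneins are small cysteine-rich proteins that bind zinc and copper in the cytosol, and in liver their genes respond to metals, glucocorticoids, inflammatory cytokines and oxidants. Carriers of the Slc39 (ZIP) family move metal ions into the cytosol, and carriers of the Slc30 (ZnT) family move them out of it, to the outside or into organelles. Several also carry manganese or iron: Slc39a14 brings zinc, iron and manganese into hepatocytes, Slc39a8 recovers manganese from bile, and Slc30a10 exports manganese. Atp7b loads copper onto ceruloplasmin and sends the excess into bile, the route that is lost in Wilson disease.

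The coding sequences of the metallothionein pair are shown because they explain the name and because their likeness bears on whether short reads can tell the genes apart. Both genes are on the plus strand of chromosome 8, and 5521 bases separate the end of Mt2 from the start of Mt1 in the deposited table. Each sequence is the spliced coding part of 3 exons of the principal GENCODE M21 transcript (Mt1 chr8:94179311-94180193, Mt2 chr8:94172848-94173427, build GRCm38, plus strand), and capitals mark the cysteine codons TGC and TGT.
Mt1 coding sequence: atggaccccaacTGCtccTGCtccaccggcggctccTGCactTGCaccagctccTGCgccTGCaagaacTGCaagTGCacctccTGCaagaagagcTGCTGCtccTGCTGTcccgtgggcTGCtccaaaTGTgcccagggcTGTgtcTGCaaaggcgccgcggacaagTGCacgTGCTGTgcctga
Mt2 coding sequence: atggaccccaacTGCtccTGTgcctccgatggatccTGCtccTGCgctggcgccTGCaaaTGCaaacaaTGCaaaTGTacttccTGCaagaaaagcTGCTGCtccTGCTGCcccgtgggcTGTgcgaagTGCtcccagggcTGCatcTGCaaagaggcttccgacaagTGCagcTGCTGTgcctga
Cysteine took 20 of 61 codons in each gene, or 32.8%, and all 20 stood at the same codon positions in both. Of 186 coding bases 148 were identical (79.6%), and the longest stretch shared by the pair was 20 bases, so a longer read meets at least 1 difference.

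Metallothionein promoters hold metal response elements, the sites of the zinc-sensing factor MTF1. The windows below run from 250 bases before the RefSeq start site to 30 bases after it (GRCm38.p6, plus strand; Mt1 chr8:94178839-94179118, Mt2 chr8:94172368-94172647). Capitals mark matches to the core TGCACNC or TGCGCNC on either strand.
Mt1 promoter: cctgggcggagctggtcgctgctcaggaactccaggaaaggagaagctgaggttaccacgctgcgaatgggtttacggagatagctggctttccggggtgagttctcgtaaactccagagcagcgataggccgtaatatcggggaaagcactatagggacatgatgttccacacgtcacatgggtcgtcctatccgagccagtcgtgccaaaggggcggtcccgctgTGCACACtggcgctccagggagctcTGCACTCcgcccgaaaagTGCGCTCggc
Mt2 promoter: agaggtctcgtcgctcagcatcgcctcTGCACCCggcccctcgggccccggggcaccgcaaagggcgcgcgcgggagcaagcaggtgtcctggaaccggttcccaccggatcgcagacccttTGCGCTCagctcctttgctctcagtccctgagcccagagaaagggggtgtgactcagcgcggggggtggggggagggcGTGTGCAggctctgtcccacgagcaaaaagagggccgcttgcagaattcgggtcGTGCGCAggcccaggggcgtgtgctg
Mt1 held 3 matches and Mt2 held 4, none overlapping within a window. Over windows of 300 bases that end 50 bases after the start, 25.7% of 32851 promoters held at least 1 match and 1.97% held 3 or more. The RefSeq table had a promoter for 6 of the 8 genes. Slc30a10 had 3 matches, of which a pair overlapped on opposite strands, Slc30a1 had 2, Atp7b had 1, and Slc39a8 had 1 in 1 of its 2 windows. The core of the antioxidant response element, TGACNNNGC, occurred once each in Mt2, Slc30a1 and the other window of Slc39a8 (12.4% of all promoters), and a pair of STAT half-sites, TTCNNNGAA, in no window of the 6 genes (8.30% of all promoters). GENCODE places the start of the other 2 of 3 Mt1 transcripts 122 and 152 bases after the RefSeq start, and both of its Mt2 transcripts start 46 and 242 bases after the RefSeq start of Mt2. These starts lie past the end of the printed windows. A match is a stretch of letters, and binding was not measured.

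Total counts ran from 14065837 to 15342922 in norUDCA libraries and from 12209706 to 13715026 in chow libraries, without overlap (n = 6 each; exact permutation p = 0.00216, the smallest that 924 regroupings can give). Expression is given as CPM, counts brought to a common library total with TMM factors, which keep most genes at the same ratio between libraries. These factors also separated the diets, at 1.02 to 1.07 in norUDCA and 0.916 to 0.974 in chow libraries (exact permutation p = 0.00216). The 50 most abundant genes took 31.5 to 34.3% of counts in norUDCA and 35.6 to 37.2% in chow libraries (exact permutation p = 0.00216). The hepatocyte markers matched the tissue label, with Alb at 43676 to 56164 CPM in norUDCA and 35743 to 54396 CPM in chow libraries. Summed acute-phase transcripts set chow 2 apart at 108096 CPM, against 29292 to 59027 CPM in the other chow libraries. Values without this library are given for Mt1, Mt2, Slc30a1, Slc39a14, Cp, Saa3, Slc11a2 and the acute-phase list. Other genes were also highest in chow 2, such as Hpx (15870 CPM) and Itih3 (2865 CPM), and are given with all libraries only.

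All 8 genes passed the filter on low counts, with at least 199 counts in every library. In edgeR's quasi-likelihood test at a Benjamini-Hochberg adjusted p under 0.05, Atp7b rose and Slc30a10 fell under norUDCA. These were 2 of 8 genes, while 15.3% of all 12378 genes tested passed. For the directions, 6.73% of all genes were higher and 8.62% lower. There was no overlap between diets for 1 of the 8 genes, Atp7b, as for 7.66% of all genes tested (3.59% higher and 4.07% lower). The median log2 fold change of the 8 genes was -0.37, and that of all genes was -0.0014.

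**Figure D1:**
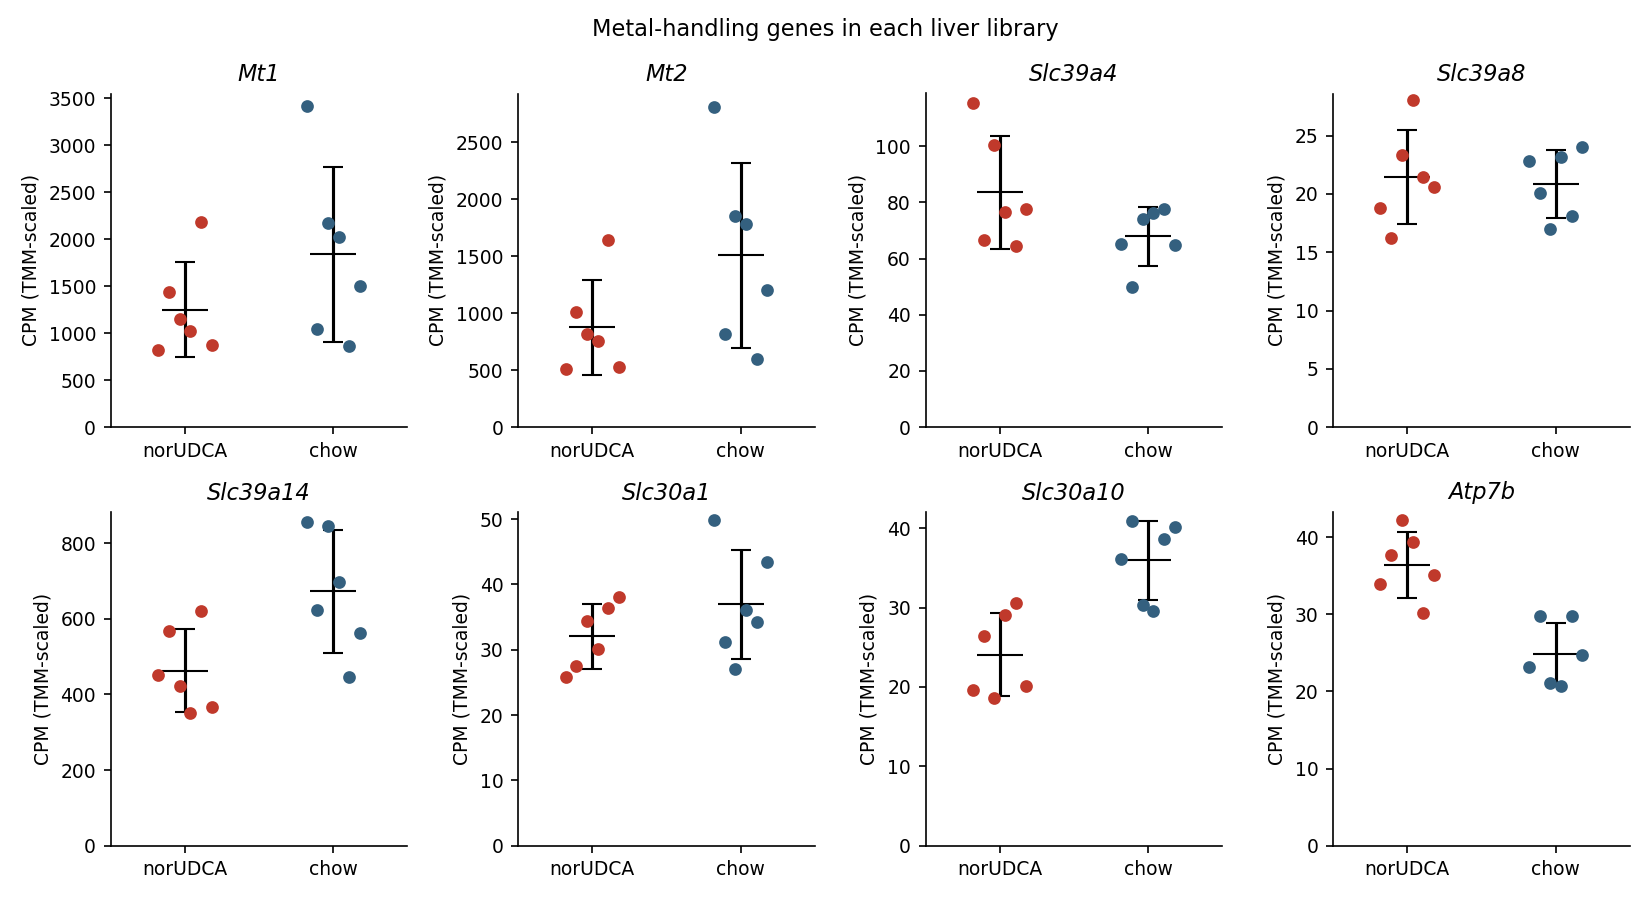
Expression of the 8 genes in each library, in TMM-scaled CPM on axes that start at 0, with norUDCA libraries in red on the left and chow libraries in blue on the right of each panel. Points are libraries, and bars give the mean and SD of 6 libraries. The norUDCA points of Atp7b, from 30.2 to 42.2 CPM, all lie above the chow points, from 20.7 to 29.8 CPM.

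Atp7b (ENSMUSG00000006567, chromosome 8, minus strand, 21992785 to 22060305), the copper-transporting ATPase, was expressed at 30.2 CPM in the lowest, 36.4 CPM in the median and 42.2 CPM in the highest norUDCA library, against 20.7, 24.0 and 29.8 CPM in chow libraries. Every norUDCA library exceeded every chow library, although norUDCA 13 at 30.2 CPM and chow 3 at 29.8 CPM lay close together. The means were 36.4 ± 4.25 CPM under norUDCA and 24.9 ± 4.06 CPM under chow (SD, n = 6 each), a 1.46-fold rise (log2 fold change 0.55 ± 0.11 SE, 95% interval 0.32 to 0.78, adjusted p = 0.00404). The call held without any 1 library, with adjusted p from 0.00231 to 0.0114, and the log2 fold change was 0.70 with scaling by total counts.

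The other genes of copper handling did not move as one. Of 17 tested, 2 rose and 2 fell, with a median log2 fold change of 0.01, while 6.73% of all genes tested rose and 8.62% fell. Cp, which encodes ceruloplasmin, the plasma protein that receives copper from Atp7b, had 969 to 1148 CPM in norUDCA libraries and 1196 to 2687 CPM in chow libraries. The ranges did not overlap, and the highest value belonged to chow 2. Cp fell by 0.69 on the log2 scale (SE 0.16, adjusted p = 0.00953), and by 0.49 without chow 2 (adjusted p = 0.00205). Sod1, the copper-zinc superoxide dismutase, rose to 826 ± 86.3 CPM under norUDCA, against 666 ± 32.1 CPM under chow (SD, n = 6; log2 fold change 0.31, adjusted p = 0.0161), also without overlap. Sco1, a copper chaperone of cytochrome c oxidase, rose by 0.35 (adjusted p = 0.0404), and Steap3, an endosomal metalloreductase, fell by 0.31 (adjusted p = 0.0315), both on the log2 scale. Sco1 lost its call without norUDCA 9, 10, 12 or 20 or chow 7, 8 or 17 (adjusted p = 0.0537 to 0.0859), and Steap3 without norUDCA 9, 10, 11, 13 or 20 or chow 7 or 16 (adjusted p = 0.0519 to 0.0862). The copper importer Slc31a1 had 169 ± 11.9 CPM under norUDCA and 173 ± 6.00 CPM under chow (SD, n = 6; adjusted p = 0.743), with a log2 fold change of -0.04, or 0.11 with total-count scaling. Atox1, which hands copper to Atp7b, had 99.6 ± 16.02 and 83.3 ± 6.68 CPM under norUDCA and chow (SD, n = 6; log2 fold change 0.26, adjusted p = 0.0986). Total-count scaling gave 4 higher and 1 lower, Atox1 (adjusted p = 0.0117) and Cox17 being the added ones and Steap3 the one lost.

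Slc30a10 (ENSMUSG00000026614, chromosome 1, plus strand, 185454848 to 185468762), the manganese exporter, was expressed at 18.6, 23.3 and 30.6 CPM in the lowest, median and highest norUDCA library, against 29.6, 37.4 and 40.9 CPM in chow libraries. The groups overlapped at one edge, where norUDCA 13 at 30.6 CPM lay just above chow 7 at 30.3 CPM and chow 8 at 29.6 CPM. NorUDCA 9, 11 and 20 lay at 20.2 CPM or less. Slc30a10 fell to 24.1 ± 5.25 CPM under norUDCA, against 36.0 ± 4.93 CPM under chow (SD, n = 6 each; log2 fold change -0.58 ± 0.14 SE, 95% interval -0.87 to -0.29, adjusted p = 0.0107). The call held in every leave-one-out fit, with adjusted p from 0.00671 to 0.0324. An antisense gene, Gm2061, overlaps Slc30a10, but had 112 counts in all libraries together against 4856 for Slc30a10.

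Slc30a1 (ENSMUSG00000037434, chromosome 1, plus strand, 191906767 to 191913247), the zinc exporter of the plasma membrane and a target of MTF1, did not pass the test. Its libraries ran from 25.7 through a median of 32.3 to 38.1 CPM under norUDCA, against 27.1, 35.2 and 49.9 CPM under chow. The ranges overlapped, with chow 2 and chow 17 above all norUDCA libraries and the other 4 chow libraries within the norUDCA range. The means were 32.1 ± 5.001 and 37.0 ± 8.33 CPM under norUDCA and chow (SD, n = 6; log2 fold change -0.21, 95% interval -0.51 to 0.10, adjusted p = 0.364), and the log2 fold change was -0.10 without chow 2. The antisense gene 1700034H15Rik overlaps it, with 42 counts in all against 5671. Of the 5 other ZnT genes tested, 0 passed edgeR's test, as with DESeq2 and limma-voom. Among all genes tested, 15.3% passed edgeR's test. Of the 5 ZnT genes 1 had an unadjusted p under 0.05 in edgeR's test, Slc30a5 (37.3 ± 5.92 and 51.2 ± 19.6 CPM under norUDCA and chow, SD, n = 6; log2 fold change -0.46, adjusted p = 0.141).

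Slc39a14 (ENSMUSG00000022094, chromosome 14, minus strand, 70303469 to 70351425), the importer of zinc, iron and manganese, lay at the edge of the test. It was expressed at 349.7, 436 and 619.9 CPM in the lowest, median and highest norUDCA library, against 447, 661 and 857 CPM in chow libraries. Chow 2, 7, 8 and 3 lay above all norUDCA libraries, and chow 16 lay below norUDCA 9, 10 and 13. The means were 463 ± 109 CPM under norUDCA and 672 ± 162 CPM under chow (SD, n = 6 each; log2 fold change -0.54 ± 0.17 SE, 95% interval -0.91 to -0.16, adjusted p = 0.0514). Slc39a14 passed with DESeq2 (adjusted p = 0.0215), with limma-voom and sample weights (adjusted p = 0.0489), and without norUDCA 10, norUDCA 13 or chow 16 (adjusted p = 0.0218 to 0.0479), but had an adjusted p of 0.0965 without chow 2 and 0.119 without chow 7. In the other 8 of 10 alternatives of scaling, filter, test or depth Slc39a14 did not pass (adjusted p up to 0.113).

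Slc39a14 is known to respond to interleukin-6, and 15 of 20 tested interleukin-6 and acute-phase genes fell, with 0 higher and a median log2 fold change of -1.15. Without chow 2, 13 of the 20 fell. With all libraries, 8.62% of all genes tested fell and 6.73% rose. Hpx, which encodes the haem carrier hemopexin, fell to 2341 ± 582 CPM under norUDCA, against 7979 ± 4370 CPM under chow (SD, n = 6; adjusted p = 0.00118), and the inter-alpha-trypsin inhibitor chain Itih3, the serum amyloid A gene Saa3 and the haptoglobin gene Hp fell as well (adjusted p = 0.00188 to 0.00337). The log2 fold change of Saa3 was -3.13 with all libraries and -2.21 without chow 2 (adjusted p = 0.000476). The summed level of the list was 16832 to 33332 CPM in norUDCA libraries, highest in 13 and 10, and 29292 to 108096 CPM in chow libraries, highest in 2 and 7. The same libraries held the highest Slc39a14 and Mt1 values of their diets. Kupffer cell and macrophage markers also moved, 4 of 7 tested being lower and 0 higher, with a summed level of 73.3 to 163 CPM in norUDCA libraries and 123 to 302 CPM in chow libraries. The part of these shifts in the values of Slc39a14 and the metallothioneins was not tested. In whole liver, fewer cells of a type and less RNA per cell cannot be told apart.

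Slc39a4 (ENSMUSG00000063354, chromosome 15, minus strand, 76612385 to 76616852), best known as the zinc importer of the intestine, was expressed at 64.6, 77.2 and 115 CPM in the lowest, median and highest norUDCA library, against 49.7, 69.6 and 77.6 CPM in chow libraries. NorUDCA 9 and 11 stood clear of the chow range, at 115 and 100.5 CPM, and norUDCA 20 at 77.7 CPM was level with the highest chow library. The means were 83.6 ± 20.1 and 67.9 ± 10.5 CPM under norUDCA and chow (SD, n = 6; log2 fold change 0.30 ± 0.15 SE, 95% interval -0.016 to 0.62, adjusted p = 0.190). With scaling by total counts Slc39a4 passed, at a log2 fold change of 0.45 (adjusted p = 0.0375).

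Slc39a8 (ENSMUSG00000053897, chromosome 3, plus strand, 135825279 to 135888572) was expressed at 16.3, 21.01 and 28.0 CPM in the lowest, median and highest norUDCA library, against 16.96, 21.4 and 24.0 CPM in chow libraries. The chow range lay within the norUDCA range. The means were 21.4 ± 4.04 CPM under norUDCA and 20.8 ± 2.91 CPM under chow (SD, n = 6 each). The log2 fold change was 0.04 ± 0.13 (SE, 95% interval -0.23 to 0.31, adjusted p = 0.874), and its sign turned without norUDCA 12 or chow 7. Of the 9 other ZIP genes tested 1 fell and 0 rose, while 8.62% of all genes tested fell and 6.73% rose. The lower ZIP gene was Slc39a1, a zinc importer of the plasma membrane, with 64.7 ± 7.13 CPM under norUDCA and 85.0 ± 12.7 CPM under chow (SD, n = 6; log2 fold change -0.39, adjusted p = 0.0163). With scaling by total counts Slc39a1 did not pass (adjusted p = 0.0799) and Slc39a13 was higher (adjusted p = 0.0191).

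**Figure D2:**
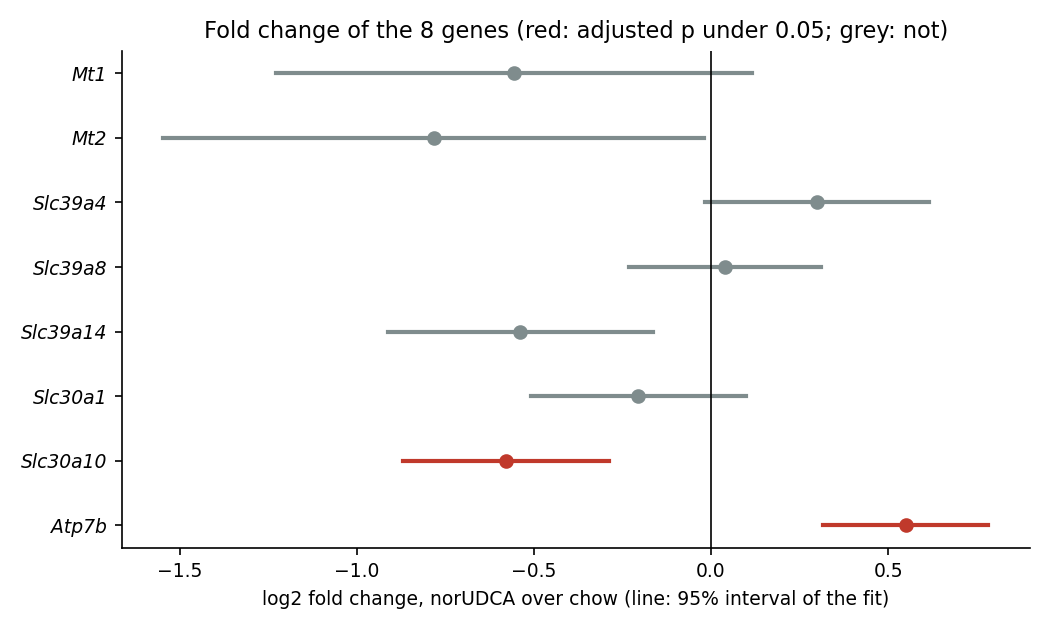
Log2 fold change of norUDCA over chow for the 8 genes, with the 95% interval of edgeR's fit as a line; red marks an adjusted p under 0.05 and grey the rest. Atp7b at 0.55 and Slc30a10 at -0.58 are the red points, and the metallothionein genes have the widest intervals.

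Mt1 (ENSMUSG00000031765, chromosome 8, plus strand, 94179089 to 94180325) was expressed at 826, 1089 and 2179 CPM in the lowest, median and highest norUDCA library, against 864, 1762 and 3415 CPM in chow libraries. The ranges overlapped over most of their length, with norUDCA 13 as high as chow 7 and with chow 16 among the low norUDCA libraries. Mt1 averaged 1249.9 ± 506 CPM under norUDCA and 1837 ± 930 CPM under chow (SD, n = 6 each; log2 fold change -0.56 ± 0.31 SE, 95% interval -1.23 to 0.12, adjusted p = 0.260). Without chow 2 the log2 fold change was -0.28 (adjusted p = 0.545), and without norUDCA 13 it was -0.77 (adjusted p = 0.103).

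Mt2 (ENSMUSG00000031762, chromosome 8, plus strand, 94172618 to 94173567) followed Mt1 library by library, at 511, 788 and 1641 CPM in the lowest, median and highest norUDCA library, against 595, 1497 and 2812 CPM in chow libraries. The order of the libraries within each diet was the same as for Mt1, and the ranges again overlapped. Mt2 averaged 878 ± 418 CPM under norUDCA and 1511 ± 813 CPM under chow (SD, n = 6 each; log2 fold change -0.78 ± 0.36 SE, 95% interval -1.55 to -0.019). Its p of 0.0453 in edgeR's test became an adjusted p of 0.156 over all genes. The log2 fold change was -0.51 without chow 2 (adjusted p = 0.339) and -1.04 without norUDCA 13 (adjusted p = 0.0577).

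Together Mt1 and Mt2 took 0.224 ± 0.0988% of all counts under norUDCA and 0.315 ± 0.157% under chow (SD, n = 6). The other metallothionein genes, Mt3 and Mt4, had too few counts to be tested, with a summed level of at most 0.384 CPM in norUDCA libraries and 1.19 CPM in chow libraries. Within norUDCA libraries Mt1 and Mt2 had a Pearson r of 0.990 and a Spearman rho of 1 (n = 6, exact permutation p = 0.00278, adjusted p = 0.0111 over 8 relations). Within chow libraries r was 0.995 and rho 1 (n = 6, exact permutation p = 0.00278, adjusted p = 0.0111), and 0.00278 is the smallest p that 720 pairings can give. Without the 2 libraries farthest from the median of Mt1, r was 0.978 in norUDCA and 0.999 in chow libraries.

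The ratio of Mt2 counts to Mt1 counts does not depend on the scaling between libraries. It was 0.619, 0.703, 0.711, 0.738, 0.753 and 0.605 in norUDCA libraries 9, 10, 11, 12, 13 and 20, against 0.824, 0.778, 0.853, 0.881, 0.689 and 0.806 in chow libraries 2, 3, 7, 8, 16 and 17. All norUDCA ratios lay below those of the chow libraries except chow 16. The means were 0.688 ± 0.0618 under norUDCA and 0.805 ± 0.0675 under chow (SD, n = 6). Within each diet the ratio was lowest in libraries with low Mt1, such as norUDCA 9 and 20 and chow 16. The ratio was chosen after the values were seen and is given without a test.

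**Figure D3:**
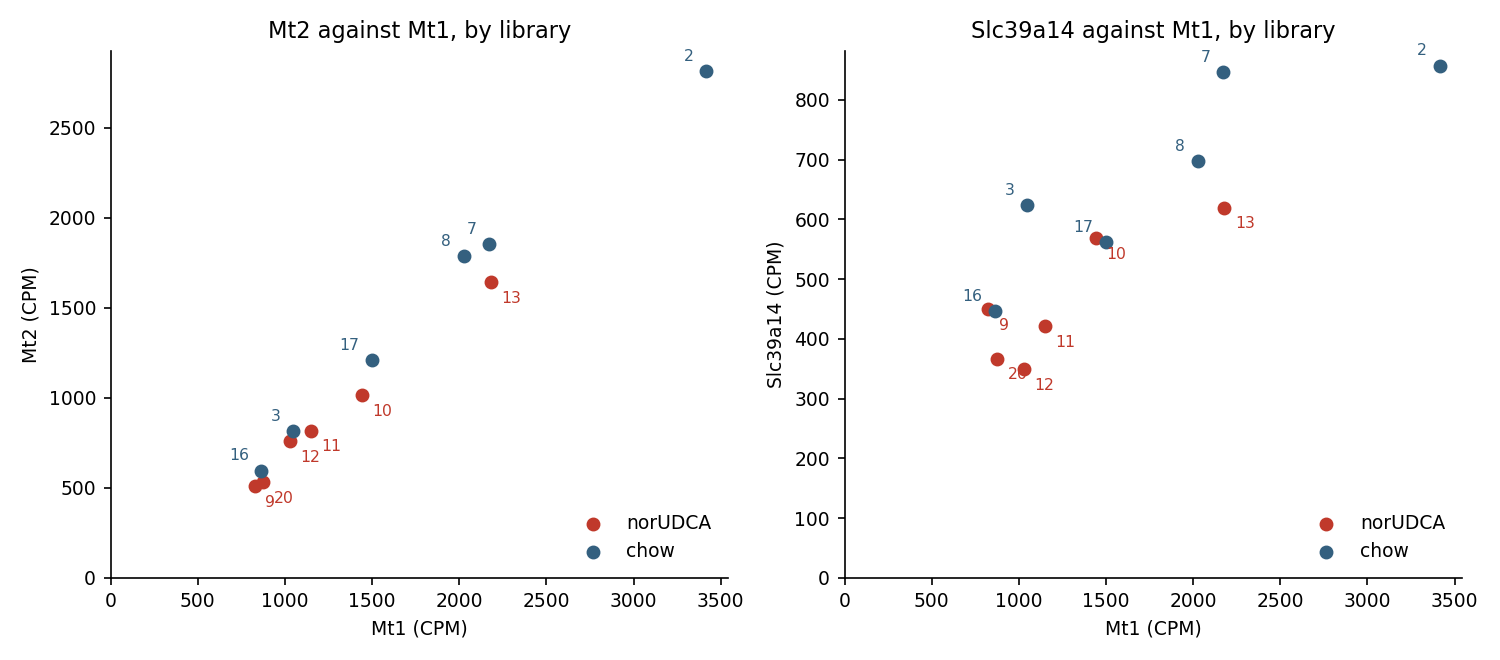
Mt2 against Mt1 on the left and Slc39a14 against Mt1 on the right, in CPM on axes that start at 0, with norUDCA libraries in red and chow libraries in blue; numbers name the libraries. Mt2 runs along a line with Mt1 up to chow 2 at 3415 CPM of Mt1, and Slc39a14 scatters more widely around its relation with Mt1.

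Slc39a14 ran with Mt1 in part. Within chow libraries r was 0.887 and rho 0.943 (n = 6, exact permutation p = 0.0167 for each, adjusted p = 0.0444), and r was 0.697 without the 2 libraries farthest from the median. Within norUDCA libraries r was 0.816 and rho 0.600 (n = 6, exact permutation p = 0.0639 and 0.242, adjusted p = 0.128 and 0.387). Without norUDCA 13 and 10 that r was -0.18, so the relation rested on those 2 libraries. Slc30a1 and Slc30a10 had r of 0.281 and 0.685 with Mt1 in norUDCA libraries, and 0.429 and -0.56 in chow libraries (n = 6 each, rho 0.257, 0.543, 0.314 and -0.60 in that order). Without the 2 farthest libraries r was 0.340 and 0.140 in norUDCA libraries, and -0.17 and -0.91 in chow libraries, for Slc30a1 and Slc30a10 in that order. None of these relations over 6 libraries passed, with exact permutation p from 0.128 to 0.614 for r and 0.242 to 0.658 for rho, and adjusted p of at least 0.204.

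Levels of different genes were compared as CPM per kilobase of gene length. Under norUDCA the order was Mt1 (2315 ± 937), Mt2 (1579.7 ± 752), Slc39a14 (90.5 ± 21.4), Slc39a4 (37.6 ± 9.06), Slc30a1 (6.11 ± 0.954), Atp7b (5.60 ± 0.653), Slc39a8 (5.08 ± 0.958) and Slc30a10 (4.13 ± 0.899; SD, n = 6 each). Under chow the first 5 places were the same, with Mt1 at 3402 ± 1722, Mt2 at 2718 ± 1462, Slc39a14 at 131 ± 31.6, Slc39a4 at 30.5 ± 4.72 and Slc30a1 at 7.05 ± 1.59 CPM per kilobase. The order then went on with Slc30a10 (6.16 ± 0.845), Slc39a8 (4.95 ± 0.691) and Atp7b (3.82 ± 0.624), so the copper pump and the manganese exporter stood in opposite places under the diets. Mt1 exceeded Mt2 in all 6 libraries of each diet, although their ranges overlapped across libraries. From Mt2 down to Slc30a1 neighbouring ranges did not overlap, and from Slc30a1 down each gene overlapped with its neighbour.

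**Figure D4:**
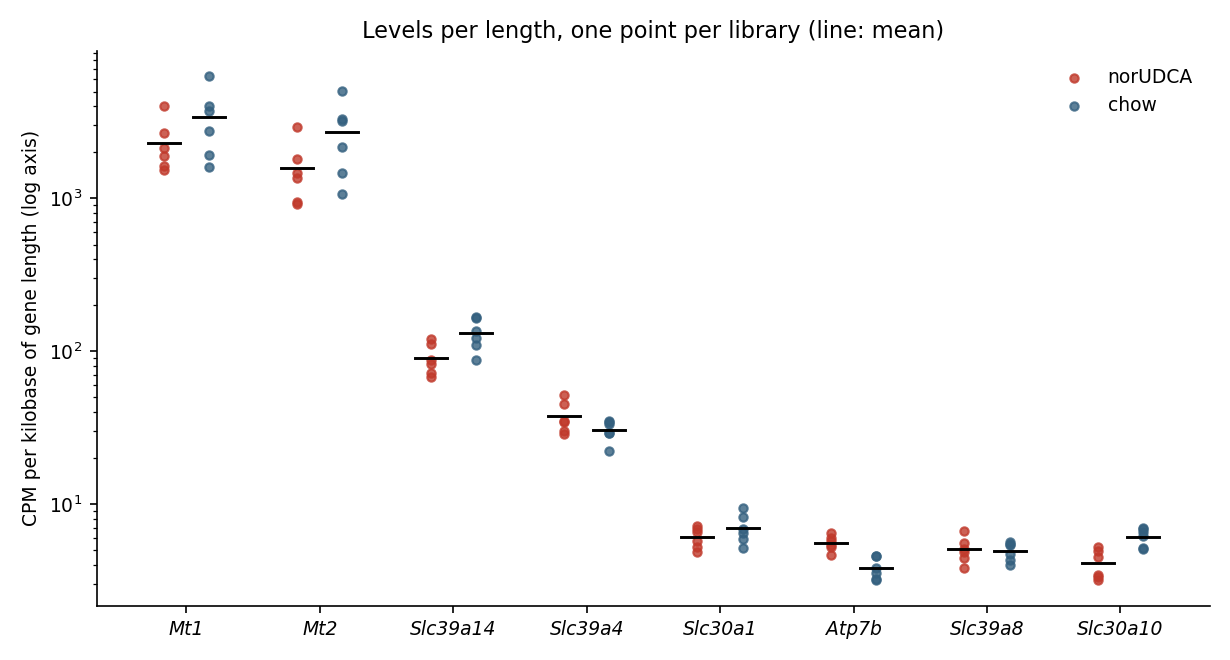
CPM per kilobase of gene length for the 8 genes on a log axis, with 1 point per library, norUDCA in red to the left and chow in blue to the right of each gene; lines are means. Mt1 and Mt2 lie at 919 or above in every library, Slc39a14 and Slc39a4 between 22.4 and 167, and the other 4 genes at 9.51 or below.

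The genes that sense zinc and keep the thiol pool were tested beside the metallothioneins. Mtf1, the zinc sensor itself, had 13.0 ± 1.65 and 13.0 ± 2.78 CPM under norUDCA and chow (SD, n = 6; log2 fold change 0.01, adjusted p = 0.986). Of the 6 genes of the list 3 rose, all of glutathione metabolism, and 0 fell. Among all genes tested, 6.73% rose and 8.62% fell. Gsr, glutathione reductase, rose to 111 ± 8.95 CPM under norUDCA, against 71.7 ± 4.203 CPM under chow (SD, n = 6 each; log2 fold change 0.63, adjusted p = 3.48e-05). Gclm and Gclc, the subunits of the enzyme that starts glutathione synthesis, rose by 0.47 and 0.66 on the log2 scale (adjusted p = 0.000118 and 0.00268). In these 3 genes every norUDCA library exceeded every chow library, as for 3.59% of all genes tested. With scaling by total counts Txn1 of this list was higher too (adjusted p = 0.00975).

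Genes listed for iron and manganese moved in both directions. Not all are carriers of these metals, since the list also held the hormone genes Hamp and Hamp2 and the Slc41 family. Of 11 tested 2 rose and 5 fell, with a median log2 fold change of -0.05, while total-count scaling gave 4 higher and 2 lower. Over all genes tested, TMM scaling gave 6.73% higher and 8.62% lower. Slc40a1, the iron exporter ferroportin, rose to 69.1 ± 17.8 CPM under norUDCA, against 28.9 ± 5.43 CPM under chow (SD, n = 6; log2 fold change 1.26, adjusted p = 0.000281). Slc11a2, the proton-coupled importer of iron and manganese, fell to 22.6 ± 2.93 CPM under norUDCA, against 45.5 ± 14.6 CPM under chow (SD, n = 6; adjusted p = 0.00113), a log2 fold change of -1.01 with all libraries and -0.82 when chow 2 was left out. In both genes the libraries did not overlap, as for 7.66% of all genes tested. Hamp, which encodes the iron hormone hepcidin, averaged 819 ± 297 CPM under norUDCA and 792 ± 295 CPM under chow (SD, n = 6; log2 fold change 0.05, 95% interval -0.56 to 0.66, adjusted p = 0.930), and its paralogue Hamp2, at 32.3 ± 7.003 CPM under norUDCA and 10.7 ± 7.69 CPM under chow, rose by 1.59 on the log2 scale (adjusted p = 0.0131). Slc41a2, of a family known for magnesium transport, fell by 2.09 on the log2 scale (adjusted p = 0.00485).

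Glucocorticoid-responsive genes of the liver, listed because glucocorticoids induce metallothioneins, did not move as one. Of 10 tested 0 rose and 2 fell, with a median log2 fold change of 0.04, while 6.73% of all genes tested rose and 8.62% fell. Angptl4 and Tsc22d3 (log2 fold change 0.52 each) and Pck1 (-0.20) had an unadjusted p under 0.05 in edgeR's test and did not pass (adjusted p = 0.127 to 0.162). The lower genes were Tat, tyrosine aminotransferase (3451 ± 521 CPM under norUDCA and 4979 ± 703 CPM under chow, SD, n = 6; adjusted p = 0.00953), and the transcription factor Klf9 (adjusted p = 0.0452), which kept its call without norUDCA 12, chow 3 or chow 17 and lost it when any other library was left out (adjusted p = 0.0544 to 0.112). With scaling by total counts Klf9 did not pass (adjusted p = 0.305) and Angptl4 was higher (adjusted p = 0.0434).

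**Figure D5:**
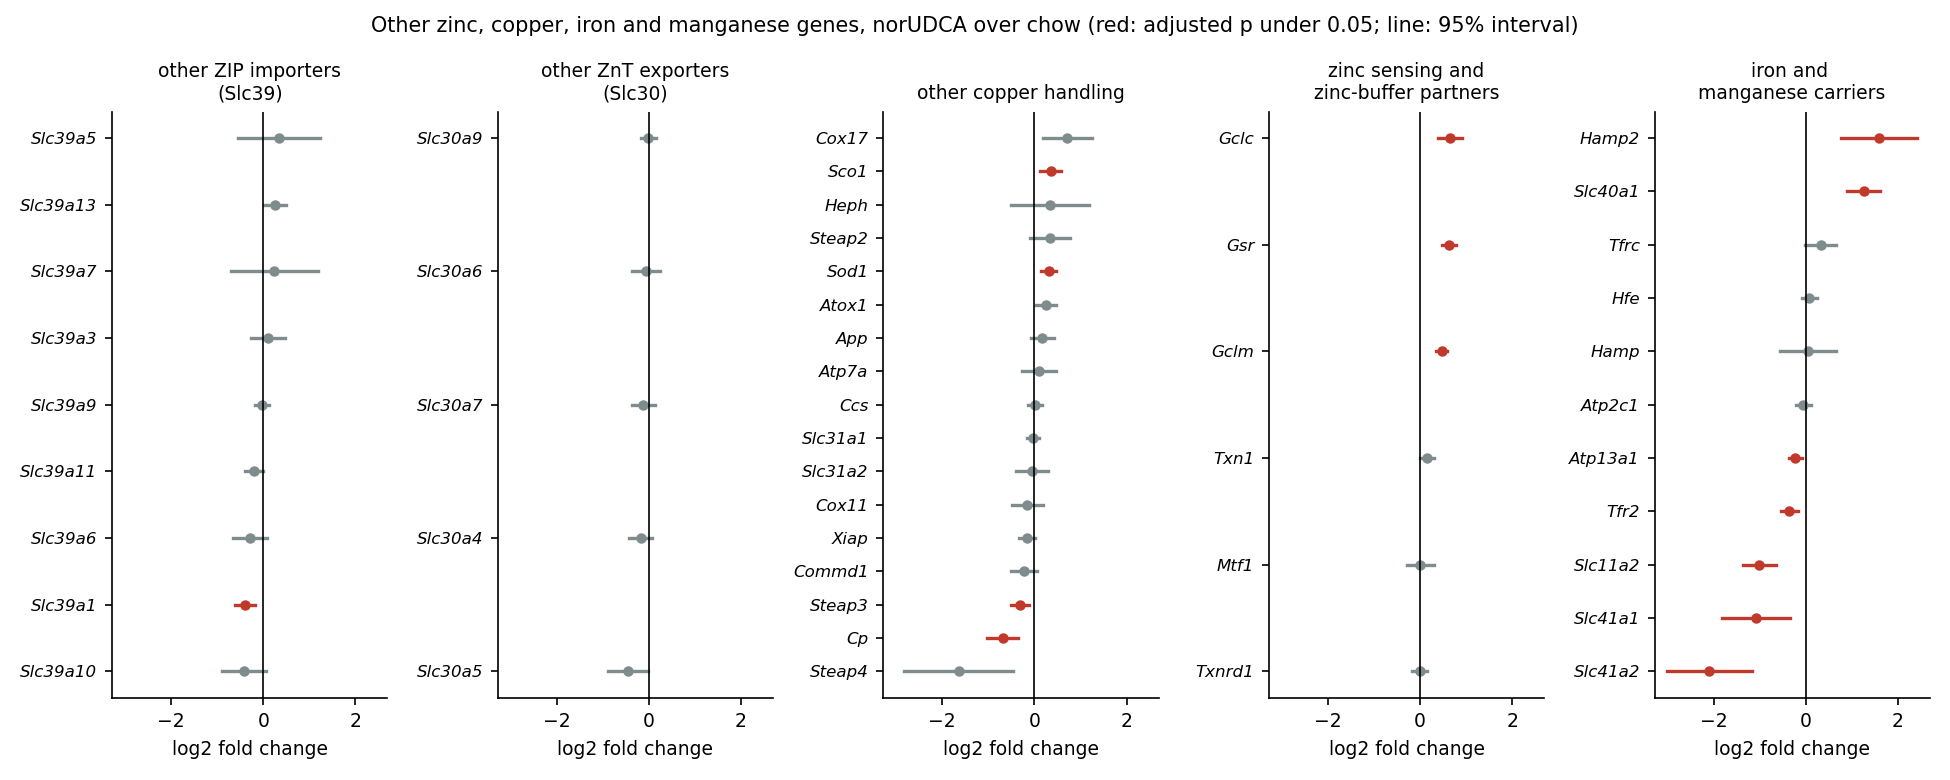
Log2 fold change of norUDCA over chow for the other zinc, copper, iron and manganese genes, in 5 panels by list, with the 95% interval of edgeR's fit as a line; red marks an adjusted p under 0.05. The 3 red genes of the zinc sensing panel and 2 of the copper panel lie to the right of 0, as do Slc40a1 and Hamp2 of the iron and manganese panel. Cp, Steap3, Slc39a1 and 5 genes of the iron and manganese panel lie to the left.

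The genes most like each of the 8 were found by the Pearson r of log2 CPM over 12 libraries after each diet's mean was subtracted, among 11009 genes. This is a description, and the libraries share their depth and any other feature of the sample. For Mt1 these were Ifitm2 (r = 0.932), Ctbs (r = 0.927) and Helb (r = 0.924), and for Mt2 Helb (r = 0.928), Ctbs (r = 0.913) and Mpnd (r = 0.910), all less alike than the pair itself (r = 0.993). For Slc39a14 the acute-phase genes Saa4 (r = 0.976) and Lcn2 (r = 0.967) came first, before Pitpnm2 (r = 0.946). Slc39a4 was most like Ugt2b38 (r = 0.922), Myc (r = 0.921) and Mup14 (r = 0.912). Slc39a8 had Nrxn2, Lhfp and Ogn (r = 0.890 to 0.910), and Slc30a1 had Gpnmb, Plekhf2 and Casp6 (r = 0.830 to 0.854). Slc30a10 was most like Rfxank, Lgals9 and Cbs (r = 0.898 to 0.919), and Atp7b most like Lsm10, Ehbp1 and Gpsm2 (r = 0.876 to 0.928).

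Markers of other cells are given for the whole comparison. Of all genes tested, 8.62% were lower and 6.73% higher, and 4.07% were lower without overlap. Of 7 tested hepatocyte markers 3 were lower, with a summed level of 65015 to 79096 CPM in norUDCA and 62292 to 81266 CPM in chow libraries. Of 8 stellate cell markers 2 were higher (summed level 156 to 222 CPM in norUDCA and 118 to 208 CPM in chow libraries). Among 8 sinusoidal endothelial markers 0 passed edgeR's test and 1, Lyve1, had an unadjusted p under 0.05 (summed level 139.5 to 203 CPM in norUDCA and 134 to 224 CPM in chow libraries). Among 7 cholangiocyte markers 2 were lower, Sox9 and Spp1, while the median log2 fold change was 0.16. Muc1, Tspan8, Krt19 and Epcam had log2 fold changes of 0.16 to 0.78 and Krt7 had -0.09, and none of these passed. The cholangiocyte list summed to 34.8 to 46.0 CPM in norUDCA and 35.0 to 104 CPM in chow libraries. Spp1 alone averaged 28.5 CPM under norUDCA and 53.6 CPM under chow. Of 8 lymphocyte and neutrophil markers 2 were tested and both were lower, S100a9 (log2 fold change -1.39, adjusted p = 0.0375) and S100a8 (log2 fold change -1.57, adjusted p = 0.0399), and the list summed to at most 4.94 CPM in norUDCA and 11.9 CPM in chow libraries. Of 6 pancreas and kidney markers only the elastase gene Cela1 was tested, and it was lower without overlap, with 14.3 ± 1.74 CPM under norUDCA and 33.7 ± 4.97 CPM under chow (SD, n = 6; log2 fold change -1.24, adjusted p = 6.2e-06). The pancreas markers Cpa1 and Pnlip had 0 counts in every library, apart from 1 count of Pnlip in norUDCA 20. The kidney marker Kap had 36 counts in chow 17 and at most 5 in any other library. Red blood cell genes summed to 209.9 to 300.3 CPM in norUDCA and 242 to 390.4 CPM in chow libraries, with 1 of 5 lower. The part of these cells in the results for the 8 genes was not tested.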

How the data were processed

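Frozen livers gave total RNA for NEBNext libraries read on an Illumina system. The deposited values used are whole-number read counts, not normalized, for 35275 genes in 12 libraries. The submitters' processing notes name CASAVA, STAR and DESeq2, but no versions; the genome build was not given in the sources used here. Of the gene identifiers, 34490 were found in GENCODE M21 (GRCm38), 24919 of them (72.2%) at the same position. Of the 8 genes 5 had the same position, and the largest shift was 532 bases. Whether counting used strand is not stated. Deposited columns of the authors' own comparison (fold changes and p-values) were not used. Symbols turned into dates (27) were restored.

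Counts were tested with edgeR 4.0.16 (R 4.3.3) by quasi-likelihood F test of norUDCA against chow, after TMM scaling and filterByExpr, and p-values were adjusted by Benjamini-Hochberg over 12378 genes. CPM are mean ± SD. Relations used log2 CPM with a prior count of 2, in two-sided exact permutation tests (scipy 1.17.1). Alternatives used limma 3.58.1 and DESeq2 1.42.0. The steps were tested on simulated data. The 8 genes and the lists were chosen with earlier results of these data known. All 8 genes are named, with Mtf1, Slc31a1, Atox1 and Cp, up to 4 called genes of each list by smallest p, and the 3 genes most like each of the 8. Genes named for another reason were chosen after their values were seen. Tf and Adgre1 were not analysed here. No lane or date is given in the labels, so batches could not be examined.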

Additional observations from a re-analysis of the deposited data

Results flagged for a closer look

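Groups of 6 libraries were examined for the 8 genes, the ratio of Mt2 to Mt1 counts and the named genes of the lists. Of these 60 groups, 5 had a library that stood far from the others. Chance would give about 1 in 20 groups, or 3, if the groups were independent. The groups share the same 12 libraries, so 5 cannot be weighed against 3. None of the 5 was in the 8 genes. In 4 of them the library was chow 2. Its Hp was 14684 CPM, against 7679 CPM in the next chow library, its Cp 2687 CPM against 1665 CPM, its Saa3 104 CPM against 29.2 CPM, and its Slc11a2 73.5 CPM against 46.0 CPM. In norUDCA libraries, Itih3 was 1051 CPM in norUDCA 13, against 736 CPM in the next. Chow 2 and norUDCA 13 also held the highest Mt1, Mt2 and Slc39a14 of their diets.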

How the results depend on the processing

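Atp7b stayed higher and Slc30a10 lower, past the threshold, in all 10 alternatives of scaling, filter, test or depth and in all 12 fits that left out 1 library. Atp7b ran from 0.50 to 0.61 without 1 library and from 0.55 to 0.70 over the 10 alternatives, and Slc30a10 from -0.65 to -0.50 and from -0.60 to -0.43 (log2 fold change). Mt1 (-0.77 to -0.28 without 1 library, -0.55 to -0.39 over the 10), Mt2 (-1.04 to -0.51, -0.78 to -0.62) and Slc30a1 (-0.28 to -0.10, -0.20 to -0.049) passed in none of these fits. Slc39a14 ran from -0.63 to -0.45 without 1 library and from -0.53 to -0.38 over the 10 alternatives. Of the 10, Slc39a14 passed with DESeq2 (-0.53) and with limma-voom and sample weights (-0.51), and not in the other 8. Slc39a4 passed with total-count scaling (0.45). Slc39a8 turned to -0.04 without norUDCA 12 and to -0.01 without chow 7, and ran from -0.039 to 0.12 over the fits without 1 library. Total-count scaling shifted the median log2 fold change over all genes to 0.15 and called 2999 genes, 2434 higher and 565 lower (81.2% higher), against 1900 with TMM (43.8% higher), and upper-quartile scaling gave 52.8% higher. Over the lists of metal and inducer genes, total-count scaling gave 15 higher and 18 lower, against 7 and 25 with TMM. Of the genes that are no member, Mtf1 turned to -0.0080 with thinned libraries and ran from -0.053 to 0.11 without 1 library, and Slc31a1 turned to 0.11 with total-count scaling and to 0.00085 without norUDCA 12, running from -0.053 to 0.00085 over the fits without 1 library. Of 176 refits of the 8 genes 168 kept direction and side of the threshold, as did 578 of 638 of other genes and lists. The relation of Mt1 with Mt2 kept r at 0.990 or above with a prior count of 0.5 or total-count scaling. Total-count scaling leaves out the TMM factors, which did not overlap between the diets. Why the factors differed, and the causes of the other shifts, were not tested. No paired analysis was possible because the diets share no replicate numbers. With 6 libraries a diet, the interval of Mt1 still allows a log2 fold change of -1.23 or 0.12.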
